A study of Mus musculus with 8 samples.

Results

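The matrix metalloproteinase (Mmp) genes, the Adamts genes and the genes of their inhibitors (Timp) were followed across 7 sorted mouse bone marrow populations, named clusters 1 to 7, and the input bone marrow cells. The 39 members, 17 Mmp, 18 Adamts and 4 Timp genes, were taken by symbol from the 3 families, and all 39 were found among 49315 deposited genes, 32464 of which had a symbol. Another 7 genes of these families lie outside the list and are described at the end. The sample labels give wild-type C57BL/6J mice of 6 weeks, with no altered gene and no agent. The study's methods name C57BL/6JJcl mice and a CAG-EGFP transgenic line, of a wider range of ages, without assigning either to these libraries. Bone fragments were digested with collagenase, and CD31-, CD45- and Ter119-negative cells were gated on the sort plots of the study as CD24- Sca-1+ CD39+ (cluster 1), Ly-6C- CD39- CD24- (cluster 2), Ly-6C+ CD39/CD54- CD24+ (cluster 3), Ly-6C- CD54+ CD24- (cluster 4), CD54+ CD121b- CD24/Ly-6C- (cluster 5), CD24+ CD39- Sca-1- (cluster 6) and CD54- Sca-1+ CD24/Ly-6C- (cluster 7). How the input cells were prepared for RNA-seq is not given in the sources used here. Each population had 1 library, so no difference between populations could be tested against replicates.

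Matrix metalloproteinases are zinc-dependent enzymes that are made as inactive precursors and together cleave most proteins of the extracellular matrix. The collagenases cut fibrillar collagen, the gelatinases degrade the unwound chains, the stromelysins have a broad range of substrates, and the membrane-type enzymes act at the cell surface. ADAMTS proteases are secreted, and different members cleave proteoglycans such as aggrecan and versican, remove the amino-terminal propeptide of procollagens, or act on microfibrils. TIMPs bind the active site of these enzymes and block it. In bone, these families are known for the turnover of collagen and cartilage matrix during growth and remodelling.

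The depth was 24205863 counts, 25349917, 27102715, 32549319, 12833648, 31669132 and 33238133 in clusters 1 to 7 and 20162876 in the input. Levels are given as RPKM, the count divided by the exon length and by the library's total count on genes, so that genes of different length can be compared. Intervals are exact 95% Poisson intervals for a level and exact 95% intervals for a gene's ratio between libraries, while ratios within a library have approximate 95% intervals on the log scale. All cover counting error only, since PCR copies were not separated. Because each library is a bulk sample, fewer cells of a type and less RNA per cell cannot be told apart.

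The cluster 5 library stood apart, since Lars2, mmu-mir-689-2 and Rn18s-rs5, loci with ribosomal-like reads, held 34.8% of its counts, against 10.4% in cluster 2 and 1.91% or less in the other libraries. Haemoglobin genes held 5.21% of the cluster 5 counts, against 1.1% or less in the other libraries. The summed RPKM of 6 erythroid markers was 68504 in cluster 5 and 14562 or less in the others. Scaling with TMM factors from edgeR, rather than by the total count, shifted log2 values upward by 0.31 for cluster 5 and 0.26 for cluster 6, with shifts of -0.26 for cluster 1 and -0.16 for cluster 7. Over all 8 libraries the largest TMM shift was that of the input, at -0.68. The 7 stromal markers (Pdgfra, Pdgfrb, Lepr, Cxcl12, Ly6a, Col1a1 and Col3a1) were above RPKM 2 in every library. Ly6a, the gene of Sca-1, was at RPKM 589.8 in the Sca-1+ cluster 1 and 4.98 in the Sca-1- cluster 6, while the Sca-1+ cluster 7, at 226, lay below clusters 3 and 4, at 931 and 431, whose gates do not name Sca-1. Icam1, the gene of CD54, was at 149.6 in the CD54- cluster 7 against 44.5 in the CD54+ cluster 5, and Cd24a was lowest, at 49.9, in the CD24+ cluster 3 but at 126 in the CD24- cluster 2, near the 137 of the CD24+ cluster 6, so mRNA and gate went opposite ways there.

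Of the 39 members, 25 had RPKM above 2 in at least 1 sorted library (11 Mmp, 11 Adamts and 3 Timp genes), against 25.1% of all genes. Mmp2, Mmp13, Timp1 and Timp2 were the most abundant, and 10 members reached RPKM 100. Among the 25 expressed members, the highest sorted library exceeded the lowest by more than 2-fold in RPKM + 1 for 24, or 96.0%, against 70.6% of all 12360 genes above RPKM 2. The exception was Adamts10, at 6.45 to 12.9. More than 4-fold was reached by 15 of them, against 15.7% of all genes. Their median fold between the highest and the lowest library was 4.54, against 2.39 for all genes.

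The highest value of a member most often lay in cluster 7. It was the highest sorted library for 12 of the 25 members, or 48.0%, against 25.3% of all genes, and cluster 1 was highest for 7 (28.0%, against 21.3%). Clusters 2, 4 and 6 were each highest for 2, or 8.0%, against 22.8%, 8.95% and 7.1% of all genes, and clusters 3 and 5 for none, against 9.85% and 4.73%. The lowest value lay in cluster 6 for 9 members (25.5% of all genes), in cluster 5 for 6 (46.3%), in cluster 3 for 5 (8.11%), in cluster 2 for 4 (7.25%) and in cluster 4 for 1 (4.4%), and never in cluster 1 (3.82%) or cluster 7 (4.59%). Under TMM factors 9 of 26 members were highest in cluster 7 (34.6%, against 16.3% of all genes), 6 in cluster 1 (23.1%, against 8.69%) and 5 in cluster 6 (19.2%, against 20.3%). The members' median log2 value relative to each gene's mean over the 7 libraries was 0.76 in cluster 7, where that of all genes was 0.18, and -0.58 in cluster 2, where it was 0.03. In cluster 5 the members' median of -0.50 lay near the -0.42 of all genes.

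**Figure D1:**
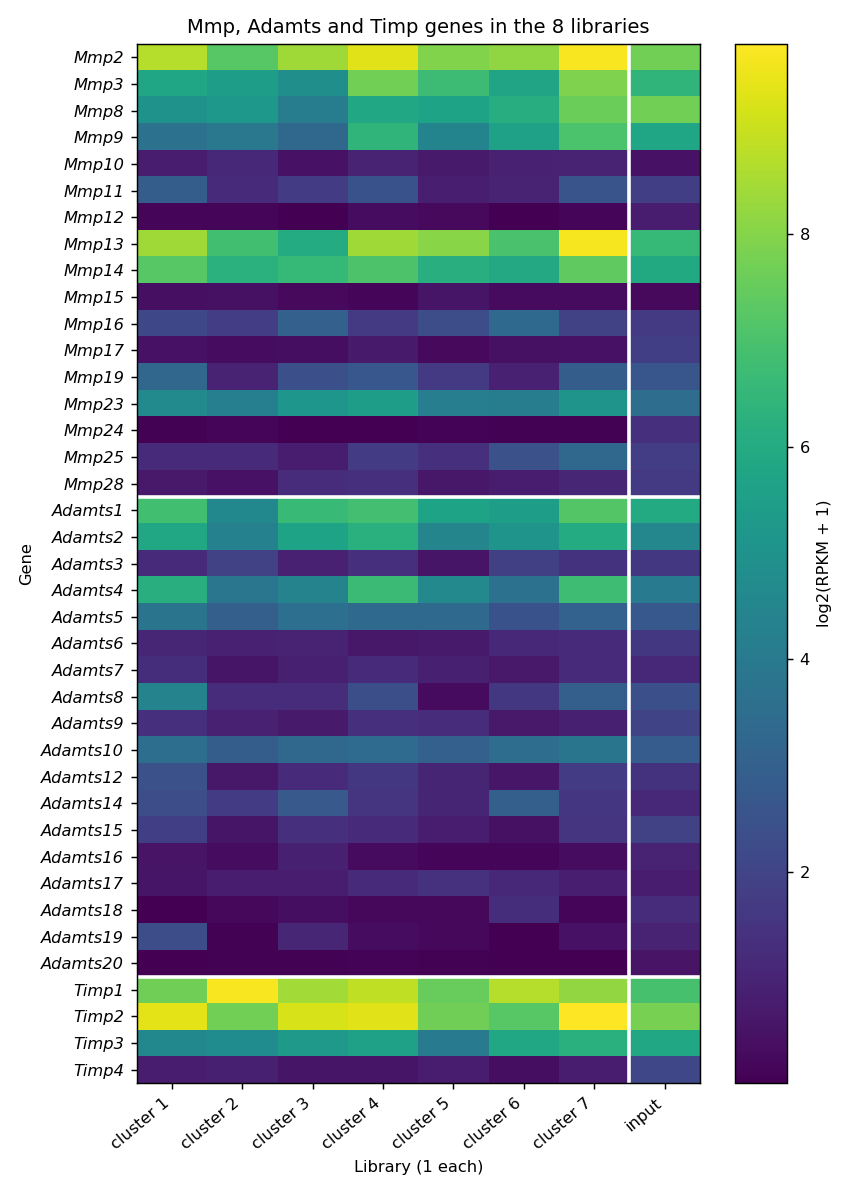
Level of the 39 members as log2(RPKM + 1) by colour, with genes in rows by family (white lines) and the 7 sorted libraries and the input in columns, 1 library each. The brightest cells are Mmp2, Mmp13 and Timp2 in cluster 7 and Timp1 in cluster 2, and 14 genes stay at or below RPKM 2 in all 7 sorted libraries.

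**Figure D2:**
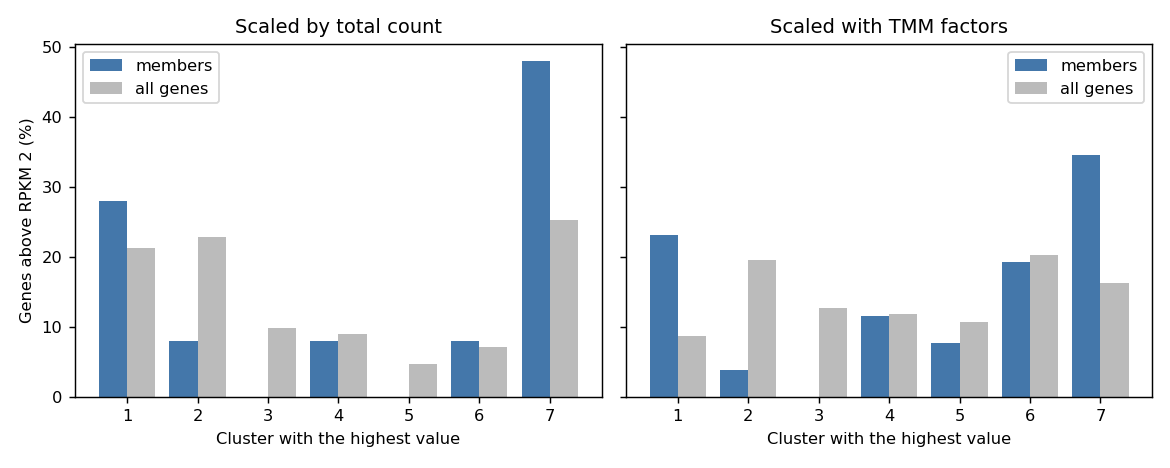
Share (%) of the genes above RPKM 2 whose highest value lay in each sorted library, for the members (blue) and all genes (grey), scaled by total count (left) and with TMM factors (right). Cluster 7 holds 48.0% of the members against 25.3% of all genes on the left, and 34.6% against 16.3% on the right.

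Among the sorted libraries, the collagenases Mmp13 and Mmp8 were both highest in cluster 7. Mmp13, collagenase-3 of osteoblasts and hypertrophic chondrocytes (chr9:7272514-7283331, plus strand, GRCm38), had an RPKM of 339, 112, 63.8, 335, 266, 125 and 800.4 in clusters 1 to 7 and 93.7 in the input. By total count cluster 7 thus stood 2.36-fold (2.33 to 2.40) above cluster 1, clusters 1, 4 and 5 formed a middle level, and clusters 2, 3 and 6 and the input lay lowest. The order of clusters 1, 4 and 5 is not read here, since with TMM factors they were at 283, 327 and 329.8, against 719 in cluster 7. Mmp8, the neutrophil collagenase (chr9:7558456-7568485, plus strand), had an RPKM of 31.9, 36.1, 16.4, 57.9, 50.3, 67.8 and 193 in clusters 1 to 7 and 209.6 in the input. Cluster 7 was 2.84-fold (2.75 to 2.93) above cluster 6. The input was above cluster 7 by total count, but below it with TMM factors over the 8 libraries, at 131 against 186.

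Mmp13 and Mmp8 were more than 2-fold above each other sorted library, which held for 0.793% of all genes with cluster 7 as the highest. Of all 25 expressed members 4 met this rule, against 5.4% of all genes. The others, Adamts8 and Adamts19, were highest in cluster 1. With TMM factors the same 4 met it, against 5.88% of all genes, whereas Mmp13 no longer did with DESeq2 size factors or with the total without ribosomal-like, mitochondrial and haemoglobin counts. Under the last of these Timp1, highest in cluster 2, met the rule.

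Mmp13, Mmp12, Mmp3, Mmp10 and Mmp8 are neighbours within 296 kb of chromosome 9 (7272514 to 7568485). Among the sorted libraries, Mmp13, Mmp3 and Mmp8 of this group of neighbours were highest in cluster 7, while Mmp10 and Mmp12 stayed below RPKM 2 in all 7. Mmp20, Mmp7, Mmp1b, Mmp1a and Mmp27, the 5 other Mmp genes within 1 Mb, reached at most RPKM 1.02. The 250 bases before the start of Mmp13 and Mmp8, from RefSeq (GRCm38.p6, plus strand), are shown because these are the protease genes that stood out in cluster 7. Capitals mark letters of the RUNX motif (TGTGGT, or ACCACA on the other strand) and of the AP-1 motif (TGANTCA, which also reads as itself on the other strand). The windows are chr9:7272264-7272513 for Mmp13 and chr9:7558179-7558428 for Mmp8.
Mmp13: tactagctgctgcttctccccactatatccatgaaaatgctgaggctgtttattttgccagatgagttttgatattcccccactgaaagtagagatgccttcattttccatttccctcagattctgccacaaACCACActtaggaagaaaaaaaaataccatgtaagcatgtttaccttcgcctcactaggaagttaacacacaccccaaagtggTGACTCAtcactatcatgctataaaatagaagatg
Mmp8: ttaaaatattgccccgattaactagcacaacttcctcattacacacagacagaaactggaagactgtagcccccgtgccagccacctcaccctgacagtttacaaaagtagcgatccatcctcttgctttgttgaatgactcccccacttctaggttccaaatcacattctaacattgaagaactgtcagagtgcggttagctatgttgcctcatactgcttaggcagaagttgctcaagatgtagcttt

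The Mmp13 window held a RUNX match on the minus strand, 118 to 113 bases before the start, and an AP-1 match, 35 to 29 bases before it. Among 32851 promoters of the same length, 14.0% held the RUNX letters, 6.75% the AP-1 letters and 1.01% both. Neither of these exact sets of letters was found in the Mmp8 window. Other forms of the motifs were not searched, so a lack of RUNX or AP-1 sites in Mmp8 is not read from this. RefSeq entries were used for 25 members with 27 promoters, of which 3 held the RUNX letters (Mmp13, Mmp14 and Mmp23), 4 the AP-1 letters (Mmp3, Mmp10, Mmp12 and Mmp13) and 1 both. The matches do not overlap each other.

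The gelatinases were highest in clusters 7 and 4, and the Mmp13 to Mmp2 ratio within a library was above 1 only in cluster 5, at 1.1 (1.07 to 1.13), against 0.188 in cluster 3 to 0.979 in cluster 7. Mmp2 (gelatinase A), the most abundant Mmp in every library except cluster 5 and the input, had an RPKM of 414, 153, 339.8, 649.6, 242, 287 and 817 in clusters 1 to 7 and 209 in the input. By total count every value in clusters 1, 3, 4 and 7 lay above those in clusters 2, 5 and 6, whereas with TMM factors cluster 6, at 344, passed cluster 3, at 334. Cluster 7 was 1.26-fold (1.25 to 1.27) above cluster 4. Mmp9 (gelatinase B), which neutrophils and osteoclasts make, had an RPKM of 11.8, 14.2, 8.59, 84.4, 20.4, 47.8 and 129.6 in clusters 1 to 7 and 52.6 in the input. Cluster 7 was 1.54-fold (1.5 to 1.58) above cluster 4 and 15.1-fold (14.1 to 16.2) above cluster 3, the widest span of the gelatinases.

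Mmp3 (stromelysin-1) formed a similar pair of high libraries. Its RPKM was 55.1, 42.6, 28.7, 210.2, 103, 52.4 and 235 in clusters 1 to 7 and 83.2 in the input. Clusters 4 and 7 differed by 1.12-fold (1.09 to 1.14), and no other library passed 103. Mmp11 (stromelysin-3) was lower throughout, at 0.757 in cluster 5 to 6.51 in cluster 1.

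Among the membrane-type enzymes, Mmp14 (MT1-MMP), which activates the Mmp2 precursor at the cell surface, was the most abundant. The RPKM of Mmp14 ran from 59.5 in cluster 6 to 169 in cluster 7, and clusters 1, 3, 4 and 7 were each above clusters 2, 5 and 6, under TMM factors as well but not under DESeq2 size factors. Within a library, where the scaling between libraries has no effect, the Mmp2 to Mmp14 ratio was lowest in cluster 2 at 2.04 (1.99 to 2.10) and highest in clusters 4, 6 and 7, at 4.92 (4.85 to 5.0), 4.83 (4.71 to 4.95) and 4.83 (4.76 to 4.90), which overlapped. Mmp16 (MT3-MMP) went another way, with its highest RPKM of 9.32 in cluster 6 and 6.95 in cluster 3 and its lowest of 2.15 in cluster 4. Clusters 3 and 6 also had the highest summed RPKM of the 6 osteoblast markers, 24525 and 22407, against 8699 in cluster 5 and 6455 or less in the others. Bglap and Bglap2 made up most of the cluster 3 sum, at 14020 and 9949, whereas Ibsp, Sp7, Alpl and Runx2, at 446, 20.8, 85.3 and 4.37 there, were higher in cluster 2, at 715, 21.7, 124 and 11.1. The part of these cells in the Mmp16 level was not tested.

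**Figure D3:**
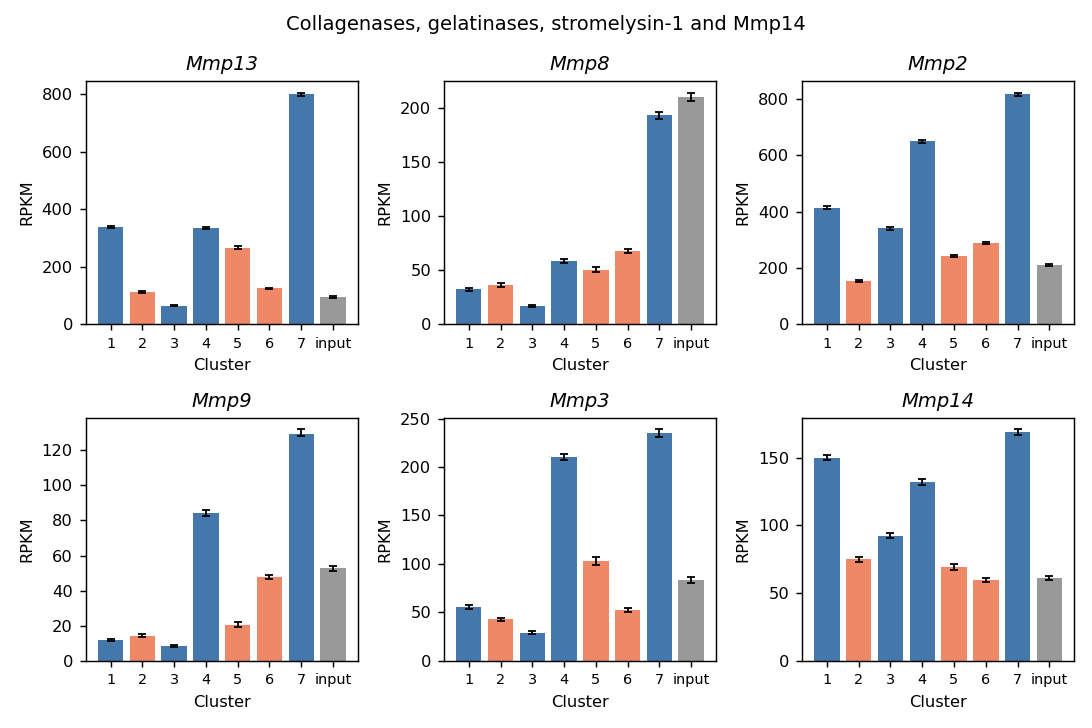
RPKM of Mmp13, Mmp8, Mmp2, Mmp9, Mmp3 and Mmp14 in the 7 sorted libraries and the input, on linear axes from 0 that differ between panels. Bars are single libraries (blue, clusters 1, 3, 4 and 7; orange, clusters 2, 5 and 6; grey, input) and error bars are 95% Poisson intervals. In each panel cluster 7 is the highest sorted library, and by this scaling only Mmp8 is higher in the input.

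Leukocyte transcripts moved with part of these values. Mmp25, a membrane-anchored enzyme found in leukocytes, was at RPKM 8.58 in cluster 7, 4.47 in cluster 6 and 2.25 or less in the other sorted libraries. All 8 neutrophil markers were above RPKM 2 in all 8 libraries, the 7 CD45-negative sorts included, and S100a9 was the most abundant. Their summed RPKM was 14107, 15943, 10819, 16995, 25503, 15096 and 28769 in clusters 1 to 7 and 42396 in the input. Among the sorted libraries the sum was highest in cluster 7 by total count, but in cluster 5 with TMM factors (31656, against 25830 in cluster 7). It was lowest in cluster 3, where Mmp8, Mmp9 and Mmp25 were also lowest. This low was not particular to them, since Mmp3 and Mmp13 were lowest in cluster 3 as well, at 28.7 and 63.8. S100a8, S100a9 and Camp were higher in cluster 5, at 7878, 11033 and 3090, than in cluster 7, at 7151, 10329 and 2757. The Ltf RPKM, a neutrophil granule gene, was 147, 175, 141, 489, 300.0, 555 and 1181 in clusters 1 to 7 and 1079 in the input. Ptprc, the gene of CD45, was at RPKM 9.26 in cluster 7, 4.02 or less in the other sorted libraries and 13.5 in the input.

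The summed RPKM of 6 macrophage markers was 109 in cluster 7, 24.4 to 48.1 in the other sorted libraries and 126 in the input, and Csf1r reached 15.0 in cluster 7. For 6 osteoclast markers the sum was 515 in cluster 7, 467 in cluster 4, 125 to 362 in the other sorted libraries and 237 in the input, and most of it was Ctsk. Acp5 was highest in clusters 7 and 4, at 52.0 and 34.5, with 12.8 to 32.7 in the other sorted libraries, and Atp6v0d2 reached 11.6 in cluster 1, 8.34 in cluster 3 and 7.92 in cluster 7. Calcr was at 0 in clusters 1 to 4 and at most 0.0996 in the other sorted libraries, and Ocstamp and Dcstamp were below RPKM 1 in all 7. The part of these cell types in the Mmp8, Mmp9, Mmp25 and Mmp13 levels was not tested. The Mmp9 to Mmp8 ratio differed between libraries, from 0.369 (0.342 to 0.398) in cluster 1 and 0.673 (0.658 to 0.688) in cluster 7 to 1.46 (1.41 to 1.51) in cluster 4, with 0.251 (0.242 to 0.261) in the input.

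By total count, the Adamts genes described here that cleave aggrecan and versican were highest in clusters 1 and 7. Adamts1, the most abundant Adamts gene in all 8 libraries, had an RPKM of 114, 22.7, 95.1, 116, 49.8, 42.9 and 144 in clusters 1 to 7 and 62.2 in the input. Clusters 1, 3, 4 and 7 did not overlap with clusters 2, 5 and 6, and by total count the input lay between them. Its place is not read here, since TMM factors over the 8 libraries shift the input downward and clusters 5 and 6 upward. Adamts4 (aggrecanase-1) had an RPKM of 69.3, 13.4, 20.0, 101, 23.5, 11.6 and 106 in clusters 1 to 7 and 15.7 in the input. Clusters 4 and 7 differed by 1.05-fold (1.03 to 1.08), and under TMM or DESeq2 factors cluster 4 was the higher. By total count clusters 2, 3, 5 and 6 were at 23.5 or less. Adamts5 (aggrecanase-2), which lies 55.1 kb from Adamts1 on chromosome 16, varied less, from 4.53 in cluster 6 to 12.7 in cluster 1, and with TMM factors its highest value, 11.3, lay in cluster 5.

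Adamts8 and Adamts19 had their highest levels in cluster 1. Adamts8, a further proteoglycan-cleaving enzyme (chr9:30942562-30963838, plus strand), had an RPKM of 19.6, 1.36, 1.38, 4.18, 0.22, 2.01 and 6.84 in clusters 1 to 7 and 4.20 in the input. Its cluster 1 level, from 2191 counts, was 2.87-fold (2.67 to 3.09) above cluster 7, and the cluster 5 level rested on 13 counts. Adamts19, a protease of little known substrate, had an RPKM of 3.93, 0.0338, 1.06, 0.277, 0.15, 0.00677 and 0.413 in clusters 1 to 7 and 0.989 in the input. Cluster 1 held 444 counts of it and cluster 3 held 134, whereas cluster 2 held 4 and cluster 6 held 1, and the cluster 1 level was 3.71-fold (3.05 to 4.53) above cluster 3. The rule of more than 2-fold over each other library was met with cluster 1 highest by 0.316% of all genes. Adamts8 shares 489 exon bases on the opposite strand with an unnamed gene that had 30 counts or fewer in each sorted library, and the strand setting of the counting is not given in the sources used here. Adamts15, 20.1 kb from Adamts8, was also highest in cluster 1 among the sorted libraries, at RPKM 2.53 against 0.369 to 1.77, with 2.71 in the input. The 5 pericyte and smooth muscle markers summed to RPKM 86.0 in cluster 1, 94.9 in cluster 7 and 7.64 to 47.9 in the other sorted libraries, with 25.3 in the input. Acta2 was the most abundant of them in clusters 1 and 7, at 61.7 and 84.7, and made up most of these sums. Myh11 was at 5.76 in cluster 1, 2.24 in cluster 7, 1.74 in cluster 4 and below 1 in the other sorted libraries. By total count only, Mcam was also highest in cluster 1, at 2.69, with 2.33 in cluster 5. Among the sorted libraries Rgs5 was highest in cluster 3, at 16.5, and Notch3 in cluster 4, at 1.71. By total count, the 5 endothelial markers also had their highest sum of the sorted libraries in cluster 1, at RPKM 11.4. The other sorted libraries were at 2.37 to 9.72, the last in cluster 5, and the input at 12.4. TMM factors shift cluster 1 downward and cluster 5 upward, so the order of these clusters is not read here. Tek, the most abundant of them in cluster 1, was at 5.31 there, 2.87 in cluster 3 and 1.57 or less in the other sorted libraries. Among the sorted libraries, Pecam1 and Cdh5 were highest in cluster 5, at 3.84 and 2.48. Pecam1 is the gene of CD31, for which all 7 sorts were gated as negative. The part of these cell types in the Adamts8 and Adamts19 levels was not tested.

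The procollagen N-proteinases differed from each other in where they were highest. Adamts2, which removes the propeptide of the main fibrillar collagens, ran from RPKM 18.7 in cluster 2 to 74.2 in cluster 4, and clusters 1, 3, 4 and 7 were all above clusters 2, 5 and 6. Adamts14 was highest in cluster 6 at 6.86 and cluster 3 at 5.74, and lowest in cluster 5 at 1.03. Adamts3 was highest in cluster 2 at 2.81 and cluster 6 at 2.65, where the ratio of 1.06 (0.925 to 1.22) left their order within counting error. Clusters 2 and 6 also had the highest summed RPKM of the 5 chondrocyte markers, 11702 and 14421, and the part of these cells was not tested. Adamts12, which cleaves cartilage oligomeric matrix protein, was highest in cluster 1 at 4.43, with 0.527 to 2.32 in the other sorted libraries.

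**Figure D4:**
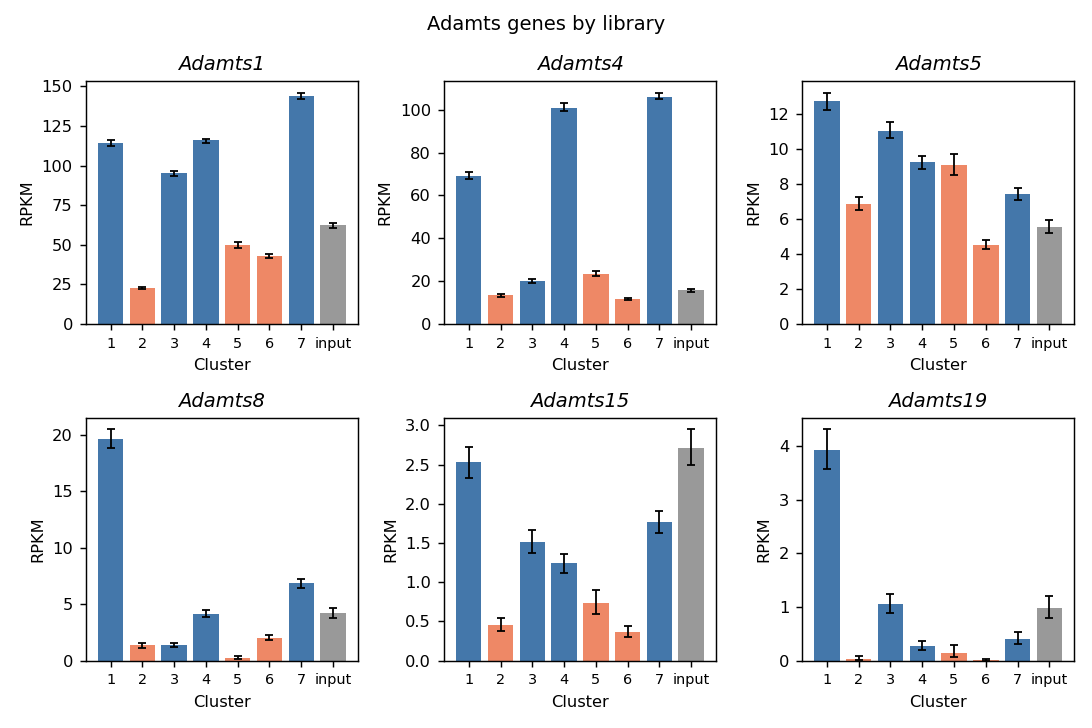
RPKM of Adamts1, Adamts4, Adamts5, Adamts8, Adamts15 and Adamts19 in the 7 sorted libraries and the input, on linear axes from 0 that differ between panels. Bars are single libraries (blue, clusters 1, 3, 4 and 7; orange, clusters 2, 5 and 6; grey, input) with 95% Poisson intervals. Adamts8 reaches 19.6 and Adamts19 3.93 in cluster 1, while Adamts1 and Adamts4 are also high in clusters 4 and 7.

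Timp1 and Timp2 were highest in different libraries. Timp1, a secreted inhibitor of most Mmp enzymes, had an RPKM of 201, 837, 342, 456, 183, 409.9 and 297 in clusters 1 to 7 and 122 in the input. Its cluster 2 level was 1.84-fold (1.80 to 1.88) above cluster 4. Timp2, which both inhibits Mmp2 and takes part in the activation of its precursor by Mmp14, had an RPKM of 671, 208, 589, 647, 202, 153 and 883 in clusters 1 to 7 and 219 in the input. By total count clusters 1, 3, 4 and 7 were at 589 or more and clusters 2, 5 and 6 at 208 or less, with only the input between them. TMM factors over the 8 libraries shift the input downward and clusters 5 and 6 upward, so the place of the input is not read here. The Timp1 to Timp2 ratio within a library, computed after these values were seen, was 4.03 (3.95 to 4.11) in cluster 2 and 2.67 (2.61 to 2.74) in cluster 6, and ran from 0.299 in cluster 1 to 0.908 in cluster 5 elsewhere.

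Timp3, which binds to the matrix and also inhibits ADAMTS enzymes, was lower, at RPKM 23.0, 26.3, 37.3, 48.0, 15.9, 56.5 and 74.3 in clusters 1 to 7 and 57.9 in the input. Cluster 7 was 1.31-fold (1.29 to 1.34) above cluster 6 by total count, but cluster 6 was the higher under TMM or DESeq2 factors. Timp3 shares 1733 exon bases with Syn3 on the opposite strand, which had 10 to 34 counts in the sorted libraries against 1662 to 20109 for Timp3. Timp4, which shares 90 exon bases with Syn2 on the opposite strand, was low in the sorted libraries, at RPKM 0.736, 0.803, 0.482, 0.459, 0.687, 0.279 and 0.72 in clusters 1 to 7, and was at 3.26 in the input. The sorted libraries of Timp4 overlapped within counting error at the top, with a ratio of 1.09 (0.833 to 1.43) between clusters 2 and 1.

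The balance of inhibitor and protease transcripts was taken as summed Timp RPKM over summed Mmp RPKM. The ratio was 0.855, 2.33, 1.62, 0.752, 0.516, 0.92 and 0.522 in clusters 1 to 7 and 0.544 in the input. Clusters 2 and 3 were above 1 with all genes summed, and clusters 5 and 7 were lowest with intervals that overlapped (0.504 to 0.529 and 0.518 to 0.526). By total count cluster 7 had the highest sums of all 3 families, with 2402 for Mmp, 355 for Adamts and 1255 for Timp. With TMM factors only its Mmp sum stood apart (2157, against 1495 in cluster 4), since the Adamts sums were 319 and 318 and the Timp sums 1126 and 1124. Cluster 2 had the lowest Mmp sum, 459, and Timp1 made up 78.1% of its Timp sum of 1072. Without the most abundant Timp gene of each library, no ratio was above 1, and the highest was 0.634 in cluster 3. Without the most abundant Mmp gene, clusters 1, 4 and 6 also passed 1, at 1.41, 1.31 and 1.60. These are ratios of transcripts, and protein was not measured.

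**Figure D5:**
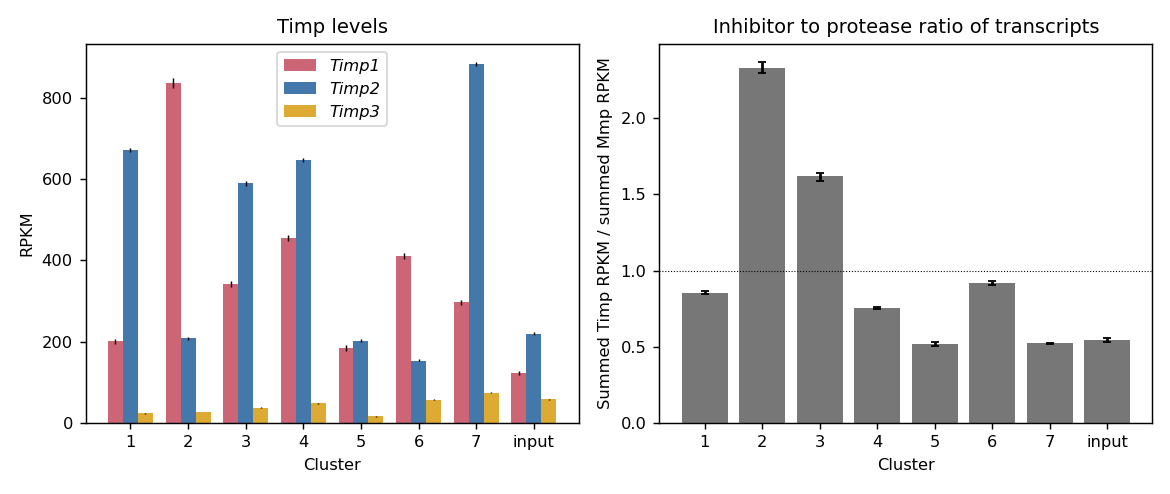
Left, RPKM of Timp1 (red), Timp2 (blue) and Timp3 (yellow) in each library. Right, summed Timp over summed Mmp RPKM, with a dotted line at 1. Bars are single libraries and error bars are 95% intervals from counting error, and Timp1 exceeds Timp2 in clusters 2 and 6 while the ratio passes 1 in clusters 2 and 3.

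The study divided its populations by open chromatin into clusters 1, 3, 4 and 7 and clusters 2, 5 and 6, and the members were set against this division. It also clustered its RNA-seq data and reported a similar outcome, so the division was already known in expression values of this kind. For 11 of the 25 expressed members, or 44.0%, all values in clusters 1, 3, 4 and 7 were above all values in clusters 2, 5 and 6, against 20.4% of all genes. They were Mmp2, Mmp11, Mmp14, Mmp19, Mmp23, Adamts1, Adamts2, Adamts12, Adamts15, Adamts19 and Timp2. In the opposite direction the groups separated for none of the members and for 0.51% of all genes, or 2.4% with TMM factors. The count depended on scaling, since 8 of 26 members were separated with TMM factors (30.8%, against 10.5% of all genes), 7 of 26 with DESeq2 size factors (26.9%, against 8.68%), and 6 of 27 without ribosomal-like, mitochondrial and haemoglobin counts (22.2%, against 9.01%). Without the cluster 5 library 13 of 25 members were separated (23.1% of all genes) and 1 in the opposite direction, Adamts3 (6.31% of all genes), and without cluster 7 the count was 12 of 25 (22.2% of all genes). Adamts1, Adamts2, Adamts19, Mmp11, Mmp19 and Timp2 were separated under each of these. The clusters of a division are different populations, not replicates of a condition, so no test was made. Mmp19 shares 789 exon bases, or 23.1% of its own, with 1110012D08Rik on the opposite strand. That gene had 98 to 687 counts in the sorted libraries, against 80 to 720 for Mmp19. The strand setting of the counting is not given, and the part of 1110012D08Rik reads in the Mmp19 separation was not tested.

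Other genes that act with these families were taken from fixed lists, and 44 of 52 were above RPKM 2 in a sorted library. By total count all 44 exceeded 2-fold between the highest and the lowest library (70.6% of all genes), and with TMM factors all but Bsg, at 1.93, and Adam19 (56.6% of all genes). By total count 19, or 43.2%, had clusters 1, 3, 4 and 7 all above clusters 2, 5 and 6 (20.4% of all genes). Of the plasminogen system, whose product plasmin activates Mmp precursors, 5 of 7 genes were above RPKM 2, and Plat (tissue plasminogen activator) was at 53.1 in cluster 7 against 6.68 in cluster 2. Plau (urokinase) was at 11.6 in cluster 4 against 0.943 in cluster 6. Of 9 other regulators, all above RPKM 2, Pcsk6, a proprotein convertase, was at 128 in cluster 3 and 56.6 or less elsewhere, and Thbs1, a matricellular protein that binds metalloproteinases, was highest in cluster 6 at 493.

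Among 10 genes of the membrane-bound ADAM relatives, 8 were above RPKM 2. Adam8, a leukocyte member, was highest in cluster 7 at 90.6, beside the leukocyte markers given above, and Adam33 in cluster 1 at 7.53. Of the ADAMTS-like genes, which lack the protease domain, 4 of 6 were above RPKM 2, and Adamtsl5 and Adamtsl4 were highest in cluster 3 at 16.5 and 29.0. All 5 cathepsins were above RPKM 2. Among the sorted libraries Ctsl was highest in cluster 4 at 448 and Ctss, typical of antigen-presenting cells, in cluster 7 at 60.6. Ctss was higher in the input, at 111. Of 5 procollagen proteinases and enhancers, 3 were above RPKM 2, with Pcolce2 at 136 in cluster 3 against 6.76 in cluster 5, and Pcolce at 325 in cluster 4 against 91.3 in cluster 2.

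The 10 substrate genes were all expressed, and by total count 5 were highest in cluster 6 (7.1% of all genes) and none in cluster 7 (25.3%). With TMM factors 6 were highest in cluster 6 (20.3% of all genes) and 1, Col3a1, in cluster 7 (16.3%). Col2a1, the collagen of cartilage, had an RPKM of 10541 in cluster 6, 8611 in cluster 2 and 3046 in cluster 4, and 192 or less in the other sorted libraries. Eln (elastin) was highest in cluster 4 at 106 and lowest in cluster 6 at 1.41.

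The comparison of the input with the sorted libraries depended on scaling. Of 29 members above RPKM 2 in any of the 8 libraries, by total count 2, Mmp17 and Timp4, were more than 2-fold above the highest sorted library in the input, against 31.2% of all genes, and none was more than 2-fold below the lowest, against 0.472%. With TMM factors none of 27 was above (18.4% of all genes) and 2, Mmp23 and Timp1, were below (2.15%), and DESeq2 size factors gave the same members (18.5% and 2.08%). Mmp17 (MT4-MMP) had an RPKM of 0.393, 0.25, 0.307, 0.641, 0.188, 0.353 and 0.414 in clusters 1 to 7 and 2.53 in the input. The Timp4 values are given above.

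The other 14 of the 39 members were at or below RPKM 2 in every sorted library. They were Mmp10, Mmp12, Mmp15, Mmp17, Mmp24 and Mmp28, Adamts6, Adamts7, Adamts9, Adamts16, Adamts17, Adamts18 and Adamts20, and Timp4. For 7 members the RPKM was below 1 in all 7 sorted libraries. Just under the threshold, Adamts17 reached 1.62 in cluster 5, Mmp28 1.56 in cluster 4 and Adamts9 1.55 in cluster 4. Just above it, Adamts15 reached 2.53 in cluster 1 and Adamts3 2.81 in cluster 2. Adamts18 was at 1.43 in cluster 6, 461 counts, and 0.29 or less in the other sorted libraries. The 7 genes of the 3 families outside the list reached at most RPKM 1.02 in the sorted libraries.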

How the data were processed

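Bulk RNA-seq of the 7 sorted populations and of input bone marrow, 1 library each, was analysed. For each Ensembl gene, the authors deposited unnormalized read counts with exon positions and exon length. According to the methods and the submitters' processing notes, bases of low quality were trimmed and reads were aligned by TopHat2 to mm9 in Partek 2.2, whereas the deposited coordinates are those of GRCm38. The counting tool, the strand setting and the treatment of reads shared between genes are not given in the sources used here. The methods describe collagenase-digested bone and sorting, but the labels' extraction text describes crushed marrow and another library kit. Symbols came from the deposited gene names and a RefSeq table.

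RPKM was computed from the deposited counts, the exon length and the total count on genes, with thresholds of RPKM above 2 and 2-fold of RPKM + 1. With 1 library per population no test was run. edgeR 4.0.16 and DESeq2 1.42.0 gave scaling factors only. Values in each library are given for members with RPKM of at least 10 and a fold of at least 4, and for the Timp genes. They are also given for members more than 2-fold above each other sorted library and those more than 2-fold above the sorted libraries in the input. From each comparison list the 2 genes with the highest fold and at least 50 counts are named. Other members are given by a range, by single values or by name only. Protein sequences were not used here. One exon overlap is not reported here. The members and lists were chosen with earlier results of these data known. The scripts were tested on simulated data. Alternatives were TMM and DESeq2 factors, a total without ribosomal-like, mitochondrial and haemoglobin counts, counts thinned to the lowest depth, other thresholds, a pseudocount of 0.1, and omission of the cluster 5 library. Omission of the cluster 7 library, further omissions of cluster 5 and the Timp1 to Timp2 ratio were added after seeing the data. So was TMM and DESeq2 scaling of family, neutrophil and substrate values. The Mmp13 to Mmp2, Mmp2 to Mmp14 and Mmp9 to Mmp8 ratios were not among the planned results either. Calculations were run in R 4.3.3 and in Python 3.11.15 with scipy 1.17.1, pandas 2.3.3 and numpy 2.4.6, and figures were drawn with matplotlib 3.10.9.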

Additional observations from a re-analysis of the deposited data

How the results depend on the processing

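No paired analysis was possible because there was a single library of every population, and the spread between animals or preparations is unknown. Of 174 alternative values, 132 stayed within 1.5 times of the main value or within its counting error, and 42 moved. Counts and folds of the highest over the lowest library cannot change direction, so no reversal could be seen for them. The Timp to Mmp ratio fell below 1 in clusters 2 and 3 without the most abundant Timp gene. It passed 1 in clusters 1, 4 and 6 without the most abundant Mmp gene. The highest library changed in 7 of 56 pairs of a member written out and a setting, for Adamts4 (to cluster 4) and Timp3 (to cluster 6) with TMM or DESeq2 factors and for Timp4 (to cluster 5) with these and with the total without ribosomal-like, mitochondrial and haemoglobin counts. The counts of expressed members (21 to 32) and of members above 2-fold (24 to 26) were stable, whereas a 4-fold threshold left 15 of the latter and 0 members above each other sorted library. Members highest in cluster 2 numbered 1 with TMM or DESeq2 factors, those highest in cluster 5 numbered 2, and those in cluster 6 numbered 5. With TMM factors these were 3.85%, 7.69% and 19.2% of the members, against 19.5%, 10.7% and 20.3% of all genes. Without ribosomal-like, mitochondrial and haemoglobin counts 3 members were highest in cluster 5. The shares of all genes for this count and with DESeq2 factors are not given here. With no RPKM filter, clusters 2, 3, 4 and 5 were highest for 5, 1, 7 and 2 members. Members with clusters 1, 3, 4 and 7 above clusters 2, 5 and 6 numbered 7 with DESeq2 factors (8.68% of all genes). They numbered 6 without ribosomal-like, mitochondrial and haemoglobin counts (9.01%), 13 without the cluster 5 library (23.1%) and 12 without cluster 7 (22.2%). Without cluster 5, 1 member (Adamts3) had the opposite order (6.31% of all genes). Members above all sorted libraries by 2-fold in the input numbered 0 with TMM or DESeq2 factors (18.4% and 18.5% of all genes). They numbered 0 at 4-fold and 1 without ribosomal-like, mitochondrial and haemoglobin counts, for which the shares of all genes are not given here. With TMM or DESeq2 factors, 2 members (Mmp23 and Timp1) lay below all sorted libraries in the input (2.15% and 2.08% of all genes). Without the most abundant Mmp gene, the Timp to Mmp ratio was 1.41, 3.50, 3.72, 1.31, 0.784, 1.60 and 0.792 in clusters 1 to 7 and 0.759 in the input, and without the most abundant Timp gene it was 0.214, 0.511, 0.634, 0.33, 0.257, 0.312, 0.155 and 0.248. With a pseudocount of 0.1 the folds of Mmp17, Adamts8, Adamts19 and Timp4 between the highest and the lowest library were 2.57, 61.7, 37.8 and 2.39, since low values weigh more. The causes of the other changes were not tested. Depth limits Adamts19 and Mmp24 most, with 1 count in their lowest libraries.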
